A study of Mus musculus with 24 samples.

Results

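The heat shock proteins and their partner chaperones were described in mouse kidney 24 h after rhabdomyolysis. Members were all genes whose symbol marks an HSP70, HSP110, HSP90, HSP60, HSP10 or small heat shock protein, a J-domain protein (Dnaj), a BAG protein (Bag1 to Bag6) or a subunit of the CCT chaperonin (Cct2 to Cct8 by name). The array named 84 such genes among 19505, each by 1 probe. They were 7 small heat shock genes, 10 of HSP70, 3 of HSP110, 2 of HSP90, the HSP60 and HSP10 genes, 15 of DnaJ classes A and B, 28 of DnaJ class C, 6 BAG genes, 8 CCT genes and 3 further genes with Hsp symbols (Hspb11, Hspbap1 and Hspbp1). Hspa8, Hsp90ab1, Dnaja1 and Cct6a were not analysed here.

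The mice were C57BL/6N males aged 10 weeks, and RNA of halved kidneys was hybridised to 24 Clariom S arrays. In the rhabdomyolysis groups, 50% glycerol was injected into the gastrocnemius, so that muscle breakdown injured the kidney; sham animals received all steps but the glycerol. Every animal had been given an oligonucleotide under the skin at 20 mg/kg 24 h earlier, either anti-miR-22, which targets the microRNA miR-22-3p, or a mismatched mock. The groups were sham mock (n = 5), sham anti-miR-22 (n = 5), rhabdomyolysis mock (n = 7) and rhabdomyolysis anti-miR-22 (n = 7). Shams and injured animals alike went without water for 23 h and were given carprofen, a painkiller, at 5 mg/kg. The labels do not say whether the mild or the severe glycerol dose was used, nor that each array was a separate animal, so the p-values rest on a spread between arrays that may be technical.

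Chaperones bind unfolded segments of proteins and keep them from aggregating. HSP70 works in cycles of ATP hydrolysis that J-domain proteins start and nucleotide exchange factors, BAG proteins and HSP110 among them, bring to an end. HSP90 takes over partly folded clients, CCT encloses actin, tubulin and other newly made proteins in a ring, HSP60 with its lid HSP10 does the same in mitochondria, and small heat shock proteins hold unfolding proteins without ATP. Under proteotoxic stress heat shock factor 1 raises the inducible members, and in the injured kidney HSP70 and HSP27, the product of Hspb1, are known as stress proteins of the tubule.

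The oligonucleotides define the treatment. They are shown 5′ to 3′ with the 4 bases that differ between them in capitals, beside the mature microRNA from RefSeq with its seed (bases 2 to 8) in capitals. Anti-miR-22 is the complement of bases 2 to 16 of miR-22-3p, and thus covers the seed.
anti-miR-22: ctTcAacTggcAgct
mock: ctAcTacAggcTgct
mmu-miR-22-3p: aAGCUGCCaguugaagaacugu

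Heat shock factor 1 binds GAA units placed in turn on either strand. Promoter windows (250 bases before to 50 after a start, RefSeq, GRCm38) were found for 70 of the 84 members, 86 windows in all, and both strands were searched for the paired units GAANNTTC and TTCNNGAA, each of which reads the same on either strand and which may overlap each other. GAANNTTC was in the windows of 16 of the 70 members (22.9%) and of 9.04% of all 27025 genes with a window. TTCNNGAA was in those of 7 members (10.0%) and of 9.6% of all genes. The heat shock element of 3 units, in which 1 of these pairs runs on into the other through a shared unit, was in the windows of 4 members, Hspd1, Hspe1, Hsph1 and Dnajb6, or 5.71%, against 0.662% of all genes. The stretches below, each written along the gene's own strand with the matches in capitals, are shown for Hspb1 and Hspa1a, which glycerol raised, and for Hspe1 with Hspd1 and Hsph1, which hold the 3-unit element and were not called with glycerol. These genes were picked with the calls known, and whether a motif goes with a call was not tested. The Hspb1 stretch is chr5:135887769-135887868 (plus strand, 150 to 51 bases before the start) and the Hspa1a stretch is chr17:34972207-34972306 (minus strand, same distance). The neighbouring gene Hspa1b has the same 100 bases at chr17:34959289-34959388 (minus strand), and the whole windows of this pair differ at 4 of 300 positions. The Hspe1 stretch is chr1:55088018-55088117 (plus strand); Hspe1 and Hspd1 are transcribed away from each other from starts 216 bases apart, so both share it (a further Hspd1 start lies 95 bases inside Hspe1). The Hsph1 stretch is chr5:149636342-149636416 (minus strand), and its 3-unit element lies just after the start, outside what is shown.
Hspb1: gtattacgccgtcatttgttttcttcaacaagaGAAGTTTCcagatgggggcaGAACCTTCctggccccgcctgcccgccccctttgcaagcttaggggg
Hspa1a: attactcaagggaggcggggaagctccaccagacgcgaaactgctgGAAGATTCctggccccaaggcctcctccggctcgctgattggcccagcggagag
Hspe1 and Hspd1: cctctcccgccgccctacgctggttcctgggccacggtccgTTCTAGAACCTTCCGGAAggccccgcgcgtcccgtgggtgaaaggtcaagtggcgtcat
Hsph1: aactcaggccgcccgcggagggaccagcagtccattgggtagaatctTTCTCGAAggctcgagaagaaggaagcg

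Values are log2 array values, on which a difference of 1 is a doubling of the deposited value; levels of different genes cannot be set against each other. Array medians lay between 5.75 and 5.86, and no fold is given where a group mean lay below 5.82, the median of these medians. All 4 group means of 16 members lay below it, among them Hspb2, Hspb3, Hspb7, Hspb9, Hspa1l and Cct8l1. Sham mock array 1 stood apart in injury genes: it read 14.59 for Havcr1, which codes for the tubular injury protein KIM-1, and the remaining 4 read 7.00 to 7.74. It also held the highest sham mock value of 12 of the 25 members that glycerol raised in both states, and array 7 of rhabdomyolysis mock held the highest injured value of 11 of them. Without the former all 25 were still called with mock, and no log2 difference among them moved by more than 0.18, the move of Hspb1. Without the latter 24 were, the exception being Hspa4l, with no move above 0.09. Proximal tubule markers (12 genes, summed log2 value 198.42 to 199.82 in sham mock and 164.83 to 175.40 in rhabdomyolysis mock) gave 11 lower calls with glycerol and mock, and thick limb and distal markers gave 6 of 6. In the same comparison macrophage markers gave 5 of 9 higher and 1 lower, neutrophil markers 4 of 7 higher and 1 lower, stroma and smooth muscle markers 4 of 6 higher, endothelial markers 2 of 6 higher and 3 lower, and skeletal muscle markers 0 of 9. With anti-miR-22 glycerol gave 12 of 12 lower calls for proximal tubule, 6 of 6 for thick limb and distal markers and 4 of 6 for endothelium with 1 higher, and higher calls for 6 of 9 macrophage markers with 1 lower, 4 of 7 neutrophil, 4 of 6 stroma and smooth muscle and 1 of 9 skeletal muscle markers. In such bulk tissue fewer cells of a type and less RNA per cell cannot be told apart, and the part of these shifts in the values below was not tested.

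Glycerol injury with mock raised 30 of the 84 genes and lowered 12 (limma, adjusted p below 0.05), that is 35.7% and 14.3%, while 18% of all 22205 probes passed as higher and 16.4% as lower. The largest rises were those of Hspb1, Bag2, Dnajc5, Cct3 and Cct5, and the heat-inducible genes Hspa1a, Hspa1b, Dnajb1, Hsp90aa1 and Bag3 rose by less. Not every heat shock gene rose: Hsph1, Hspd1 and Hspe1 were not called, and the J-domain gene Dnaja4 fell. The 6 CCT genes other than the testis paralog Cct6b and Cct8l1 all rose. The genes that fell were mostly J-domain genes of class C, above all Dnajc12 and Dnajc6. The median log2 difference of the 84 genes was 0.14, against -9e-04 over all probes.

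**Figure D1:**
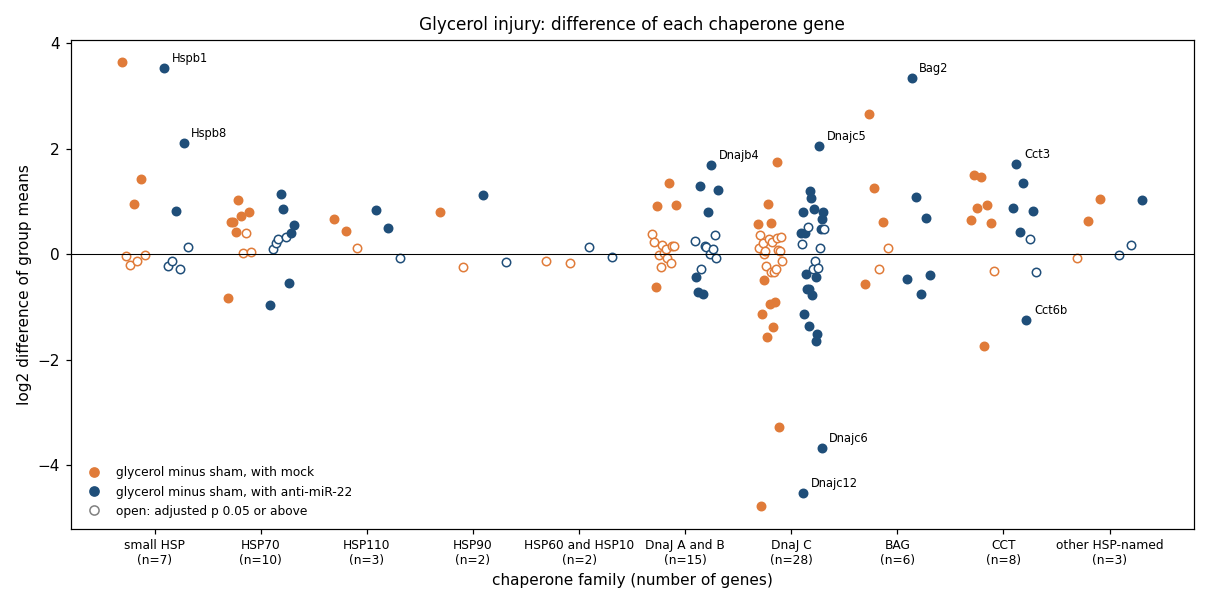
Log2 difference between rhabdomyolysis and sham group means for each of the 84 genes (y axis), by chaperone family (x axis); orange points are animals given mock and blue points animals given anti-miR-22, filled where limma's adjusted p was below 0.05. Hspb1 and Bag2 stand highest, Dnajc12 (-4.78 and -4.53) and Dnajc6 lowest, with either oligonucleotide.

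The small heat shock protein gene Hspb1 had the largest rise of any member with mock. Its values were 8.09, 7.26, 6.99, 7.47 and 7.07 in the sham mock arrays, and ran from 10.88 to 11.25 (median 10.99) in rhabdomyolysis mock. All 7 injured arrays lay above all 5 shams, and the highest sham was array 1, the one with high Havcr1. The rise was 12.5-fold (log2 3.64 ± 0.20, SE, adjusted p = 3.74e-15), and 14.1-fold without that array. With anti-miR-22 the shams read 7.65, 7.56, 6.88, 7.24 and 7.497 and the injured arrays ran from 10.08 to 11.70 (median 10.93), again without overlap. That rise was 11.4-fold (3.52 ± 0.20, adjusted p = 6.58e-15).

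Hspb8, whose product forms a complex with BAG3 that hands misfolded proteins to autophagy, rose from dim values. The sham mock arrays read 3.01, 3.89, 3.50, 3.61 and 3.58 and the injured mock arrays ran from 3.80 to 6.37 (median 4.76); the ranges met at their edges, where 1 injured array lay below the highest sham. The log2 difference was 1.42 ± 0.29 (adjusted p = 0.00017), and 2.11 ± 0.29 with anti-miR-22 (adjusted p = 3.61e-07). Hspb6, abundant in smooth and cardiac muscle, rose 1.93-fold with mock (0.95 ± 0.23, adjusted p = 0.00136) and 1.77-fold with anti-miR-22 (0.83 ± 0.23, adjusted p = 0.00454). The stroma and smooth muscle markers, which this gene could be read with, had summed values of 47.13 to 49.41 in sham mock and 53.28 to 55.60 in rhabdomyolysis mock. The other 4 small heat shock genes, Hspb2, Hspb3, Hspb7 and Hspb9, were dim in every group and not called in any comparison.

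Of the HSP70 genes, 6 of 10 rose and 1 fell with mock, against 18% and 16.4% of all probes. With anti-miR-22 4 rose and 2 fell, against 19.8% and 17.6%. Hspa1a and Hspa1b, the stress-inducible pair whose probes may not tell them apart because their sequences are nearly the same, rose moderately. Hspa1a read 8.69, 7.98, 8.10, 8.36 and 8.31 in sham mock and ran from 8.998 to 9.82 (median 9.35) in rhabdomyolysis mock. No injured array fell among the shams. The rise was 2.04-fold with mock (1.03 ± 0.21, adjusted p = 0.00016), 2.19-fold without sham mock array 1, and 2.2-fold with anti-miR-22 (1.14 ± 0.21, adjusted p = 3.88e-05). For Hspa1b the log2 differences were 0.72 ± 0.23 and 0.85 ± 0.23 (adjusted p = 0.0135 and 0.0033); without sham mock array 4 the first was no longer called (adjusted p = 0.0524). Rhabdomyolysis anti-miR-22 array 5 held the highest value of both genes in its group, 10.33 and 9.82. Without it the rises with anti-miR-22 were 0.96 and 0.64, both still called (adjusted p = 4.53e-05 and 0.00599).

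Among HSP70 genes of organelles, Hspa5, which encodes BiP, the HSP70 of the endoplasmic reticulum, rose 1.73-fold with mock (0.79 ± 0.15, adjusted p = 8.35e-05). With anti-miR-22 its difference was 0.40 ± 0.15 (adjusted p = 0.0362), a call that 9 of 31 alternatives ended (adjusted p up to 0.148), among them leaving out array 1, 3 or 5 of the sham anti-miR-22 group or array 1, 5 or 6 of the injured one. Hspa9, the mitochondrial mortalin, had a difference of 0.04 ± 0.19 with mock that was not called (adjusted p = 0.904). Hspa13 rose with mock (0.61 ± 0.12, adjusted p = 9.03e-05) and was not called with anti-miR-22. Hspa12a, a dim gene and a distant relative of HSP70, fell in both states (-0.83 ± 0.21 and -0.95 ± 0.21, adjusted p = 0.00173 and 0.00034).

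HSP110 and HSP90 supplied modest rises. Hspa4, an HSP110 exchange factor, rose 1.59-fold with mock and 1.78-fold with anti-miR-22 (adjusted p = 3.78e-05 and 1.29e-06). Its relative Hsph1 was not called: the sham mock arrays ran from 11.30 to 11.98 (median 11.71), the injured mock arrays from 11.45 to 12.14 (median 11.78), and the ranges largely overlapped. Its log2 difference was 0.11 ± 0.16 with mock and -0.07 ± 0.16 with anti-miR-22 (adjusted p = 0.647 and 0.774). Hsp90aa1, the inducible cytosolic HSP90, read 15.75, 15.55, 15.95, 16.05 and 15.73 in sham mock and ran from 15.95 to 17.02 (median 16.70) after glycerol, with the lowest injured array among the highest shams. It rose 1.75-fold with mock and 2.18-fold with anti-miR-22 (0.81 ± 0.15 and 1.12 ± 0.15, adjusted p = 7.46e-05 and 3.93e-07). The endoplasmic reticulum HSP90, Hsp90b1, had differences of -0.23 ± 0.17 and -0.14 ± 0.17 that were not called.

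**Figure D2:**
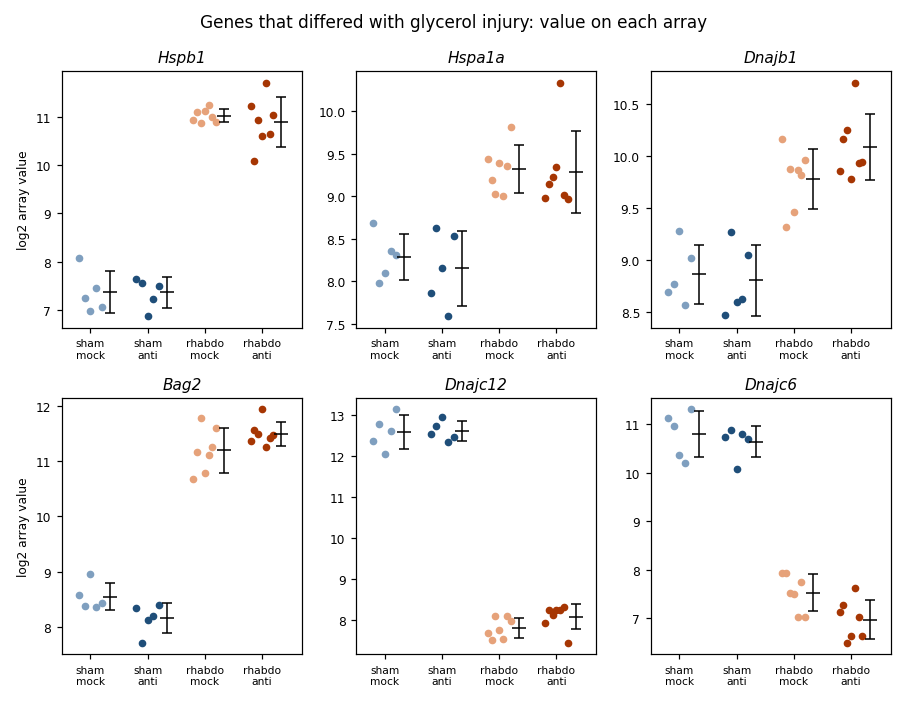
Log2 array values (y axis) of 6 genes on each of the 24 arrays by group (x axis; "rhabdo" is rhabdomyolysis and "anti" is anti-miR-22), with points for arrays and black bars for the mean ± SD. Hspb1, Hspa1a, Dnajb1 and Bag2 are higher after glycerol and Dnajc12 and Dnajc6 lower, with either oligonucleotide.

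Among class A and B J-domain genes 3 of 15 rose and 1 fell with mock. Together 26.7% of them were called, against 34.4% of all probes (18% higher and 16.4% lower). With anti-miR-22 4 rose and 3 fell, against 19.8% and 17.6%. Dnajb1, the inducible HSP40 that works with Hspa1a and Hspa8, read 8.70, 8.77, 9.28, 8.57 and 9.02 in sham mock and ran from 9.32 to 10.16 (median 9.86) in injured mock kidneys. The injured arrays lay above the shams, though the highest sham nearly reached the lowest of them. The rise was 1.89-fold with mock (0.92 ± 0.18, adjusted p = 8.87e-05) and 2.44-fold with anti-miR-22 (1.29 ± 0.18, adjusted p = 4.12e-07). Its relative Dnajb4 rose 2.54-fold and 3.21-fold, from sham ranges of 9.65 to 9.90 and 8.71 to 9.33 to injured ranges of 10.68 to 11.62 and 10.23 to 11.03. Neither pair of ranges overlapped. Dnajb9, the endoplasmic reticulum protein ERdj4 that holds the stress sensor IRE1 inactive, rose 1.91-fold and 2.33-fold (0.94 ± 0.15 and 1.22 ± 0.15, adjusted p = 4.92e-06 and 4.32e-08). Dnaja4 was the gene that fell with mock, and it fell with anti-miR-22 too (-0.61 ± 0.17 and -0.72 ± 0.17, adjusted p = 0.0044 and 0.000925).

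The BAG family held the second largest rise. Bag2, which inhibits the ubiquitin ligase CHIP on HSP70 clients, read 8.58, 8.38, 8.95, 8.36 and 8.44 in sham mock and ran from 10.66 to 11.77 (median 11.16) in rhabdomyolysis mock. The groups lay far apart. Bag2 rose 6.26-fold with mock (2.65 ± 0.17, adjusted p = 9.05e-14) and 10.1-fold with anti-miR-22 (3.33 ± 0.17, adjusted p = 3.72e-16). Its promoter window held neither paired unit, but only 19 of the 70 members with a window (27.1%) held either, so nothing is read from this. Bag3, the heat-inducible partner of HSPB8, read 7.99, 7.23, 7.20, 7.39 and 7.44 in sham mock, array 1 being the highest, and ran from 8.22 to 9.13 (median 8.72) in injured mock kidneys. All injured arrays lay above all shams. It rose 2.39-fold (1.26 ± 0.23, adjusted p = 4.27e-05), 2.63-fold without sham mock array 1, and 2.13-fold with anti-miR-22 (1.09 ± 0.23, adjusted p = 0.000249). Bag5 rose as well (0.61 and 0.68), whereas Bag1, an exchange factor bound to BCL2, fell (-0.57 and -0.47, adjusted p = 0.00161 and 0.0077). Hspbp1, an exchange factor outside the BAG family, rose 2.06-fold and 2.05-fold (adjusted p = 1.08e-05 and 1.03e-05).

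Of the 8 CCT genes 6 rose and 1 fell with mock, against 18% and 16.4% of all probes. With anti-miR-22 5 rose and 1 fell, against 19.8% and 17.6%. Cct3 read 12.26, 12.00, 12.06, 12.11 and 12.00 in sham mock and ran from 13.40 to 13.83 (median 13.52) after glycerol, and Cct5 read 13.23, 13.05, 13.10, 13.17 and 12.95 and ran from 14.16 to 14.83 (median 14.61). Neither gene's groups overlapped. Cct3 rose 2.84-fold with mock and 3.26-fold with anti-miR-22 (1.504 ± 0.11 and 1.71 ± 0.11, adjusted p = 3.33e-12 and 1.63e-13). Cct5 rose 2.74-fold and 2.56-fold (1.45 ± 0.11 and 1.35 ± 0.11, adjusted p = 8.21e-12 and 3.22e-11). Cct2, Cct4 and Cct8 rose by smaller log2 differences of 0.65, 0.87 and 0.58 with mock and 0.87, 0.43 and 0.82 with anti-miR-22, each called. Tcp1, the first subunit of the ring, lies outside the symbol rule and rose alike (0.82 ± 0.12 and 0.80 ± 0.12, adjusted p = 3.1e-06 and 3.64e-06). Cct6b, a testis form of a subunit, fell from sham mock values of 6.02, 6.00, 6.45, 5.97 and 6.13 to a dim range of 3.75 to 4.78 (-1.74 ± 0.16 and -1.25 ± 0.16 on the log2 scale). Cct7 was read dimly, below the array medians in most groups, and its rise with mock (0.94 ± 0.15, adjusted p = 7.52e-06) was not called with anti-miR-22 (0.30 ± 0.15, adjusted p = 0.133).

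**Figure D3:**
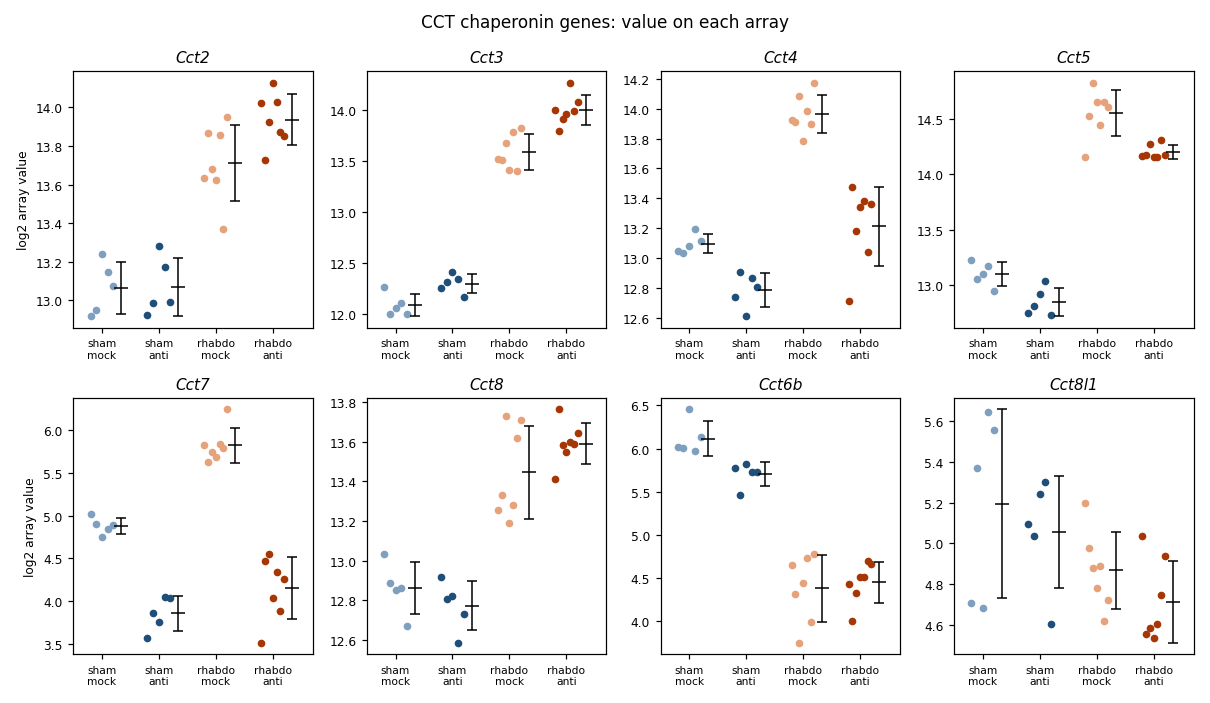
Log2 array values (y axis) of the 8 CCT genes on each array by group (x axis, groups as in the plot of single genes), with points for arrays and black bars for the mean ± SD. Cct2, Cct3, Cct4, Cct5 and Cct8 are higher after glycerol, Cct6b is lower, and Cct4, Cct5 and Cct7 are lower with anti-miR-22 than with mock among injured kidneys.

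The steepest falls were in DnaJ class C, whose members share little beyond the J domain. With mock 4 of its 28 genes rose and 8 fell, against 18% and 16.4% of all probes. With anti-miR-22 10 rose and 11 fell, against 19.8% and 17.6%. The median log2 difference of the class was 0.04 with mock and -0.01 with anti-miR-22. Dnajc12, a co-chaperone of the aromatic amino acid hydroxylases, read 12.37, 12.79, 12.06, 12.61 and 13.15 in sham mock and ran from 7.53 to 8.11 (median 7.77) in rhabdomyolysis mock. With anti-miR-22 the shams read 12.56, 12.75, 12.96, 12.34 and 12.47 and the injured arrays ran from 7.46 to 8.33 (median 8.24). In both states a gap of over 3 log2 units parted the groups. It fell 27.4-fold and 23.1-fold (-4.78 ± 0.17 and -4.53 ± 0.17, adjusted p = 2.02e-19 and 4.65e-19). Dnajc6, or auxilin, which recruits HSP70 to strip clathrin from vesicles, read 11.12, 10.96, 10.37, 10.20 and 11.30 in sham mock and ran from 7.02 to 7.94 (median 7.53) after injury. Its groups too were apart, and it fell 9.62-fold and 12.7-fold (-3.27 ± 0.21 and -3.67 ± 0.21, adjusted p = 1.28e-13 and 7.25e-15). Which tubule segment these transcripts come from was not measured, and the proximal and distal markers fell in the same arrays.

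Further class C genes fell by less. Dnajc19, part of the motor that draws proteins into mitochondria, fell 2.95-fold with mock and 2.56-fold with anti-miR-22 (-1.56 ± 0.13 and -1.36 ± 0.13, adjusted p = 1.73e-11 and 2.76e-10). Dnajc28 fell 2.61-fold and 3.12-fold, and Dnajc13, a protein of endosome sorting, 2.18-fold and 2.19-fold. Dnajc22 (-0.94 ± 0.14 and -0.78 ± 0.14) and the mitochondrial Dnajc30 (-0.90 ± 0.18 and -1.51 ± 0.18) were also called lower in both. Among those that rose, Dnajc5, the cysteine string protein of secretory vesicles, read 8.82, 9.05, 8.99, 8.65 and 8.73 in sham mock and ran from 10.18 to 10.93 (median 10.59) after glycerol. Its groups did not overlap, and it rose 3.35-fold and 4.13-fold (1.74 ± 0.17 and 2.05 ± 0.17, adjusted p = 7.25e-10 and 1.9e-11). Dnajc2, which sits on the ribosome with an HSP70, rose 1.94-fold and 2.3-fold.

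Genes of the mitochondrial chaperonin were not called with glycerol. Hspd1 (HSP60) had differences of -0.12 ± 0.13 with mock and 0.14 ± 0.13 with anti-miR-22, and Hspe1 (HSP10) of -0.17 ± 0.15 and -0.05 ± 0.15. None of these 4 differences was called (adjusted p = 0.533, 0.459, 0.439 and 0.842). Hspd1 and Hspe1 share the promoter printed above, and the part of heat shock factor 1 in these values was not tested. Of 8 members placed in mitochondria (Hspa9, Hspd1, Hspe1, Dnaja3, Dnajc11, Dnajc15, Dnajc19 and Dnajc30, a grouping made after the values were seen), 0 rose and 3 fell with mock, and 2 rose and 4 fell with anti-miR-22. Of 8 in the endoplasmic reticulum (Hspa5, Hspa13, Hsp90b1, Dnajb9, Dnajb11, Dnajc1, Dnajc3 and Dnajc10, grouped likewise), 4 rose and 0 fell with mock, and 3 rose and 1 fell with anti-miR-22. The shares of all probes were 18% higher and 16.4% lower with mock and 19.8% and 17.6% with anti-miR-22, and with groups of 8 made in this way nothing is read from the counts.

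With anti-miR-22, glycerol raised 33 of the 84 genes (39.3%) and lowered 20 (23.8%), against 19.8% and 17.6% of all probes. The differences with mock and with anti-miR-22 share no array. The fit of all 24 arrays gave both the same estimate of spread per probe, so their calls are not independent. Called higher in both were 25 members (29.8%), with 12 (14.3%) lower in both and 0 in opposite directions. With mock alone 5 (5.95%) were called, and with anti-miR-22 alone 16 (19.0%). Over all probes 14.5% were higher in both, 12.7% lower in both, 0.054% opposite, 7.22% called with mock alone and 10.2% with anti-miR-22 alone. Whether the glycerol responses differed was tested directly, as the difference between them. No member was called (limma, 0 of 84; 0.383% of all probes were called), and the lowest adjusted p was 0.122. At an unadjusted p below 0.05 there were 16 members (19.0%), against 12.4% of all probes, and 18 with trend and robust moderation, which also called 0. The widest differences were those of the dim gene Hspa2, -0.95 (95% interval -1.53 to -0.36), and of Dnajc21, 0.77 (95% interval 0.27 to 1.27). For Hspb1 the difference between the responses was -0.12 (95% interval -0.72 to 0.47), for Hspa1a 0.11 (95% interval -0.49 to 0.71), for Bag2 0.69 (95% interval 0.19 to 1.18) and for Hspb8 0.69 (95% interval -0.13 to 1.52). The intervals are for single genes; over all probes the adjusted p was 0.916, 0.933, 0.198 and 0.506, so no difference was shown, and the intervals do not show that the responses were alike.

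Anti-miR-22 was then set against mock within each state. In sham kidneys 4 of the 84 genes were higher (4.76%) and 10 lower (11.9%), against 3.85% and 3.31% of all probes. In rhabdomyolysis kidneys 8 were higher (9.52%) and 22 lower (26.2%), against 9.48% and 10.2%. Hspb8, Bag3 and Dnajc19 were higher in both states, and Hspd1, Hspe1, Dnaja3, Dnajc2, Dnajc3, Dnajc30 and Cct7 were lower in both. These 3 and 7 genes are 3.57% and 8.33% of the members, against 2.84% and 2.65% of all probes. 0 genes were called in opposite directions, 4 (4.76%) were called in sham kidneys alone and 20 (23.8%) in injured kidneys alone, against 1.66% and 14.1% of all probes. Calls in 1 state alone do not show that the states differed, and the direct test above, which is also the test of that difference, called 0 members. The median log2 difference of the 84 genes was -0.09 in sham and -0.03 in injured kidneys, against 0.00 and 0.02 over all probes. Each of these comparisons shares arrays with a glycerol comparison above, so their values for a gene are not independent.

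**Figure D4:**
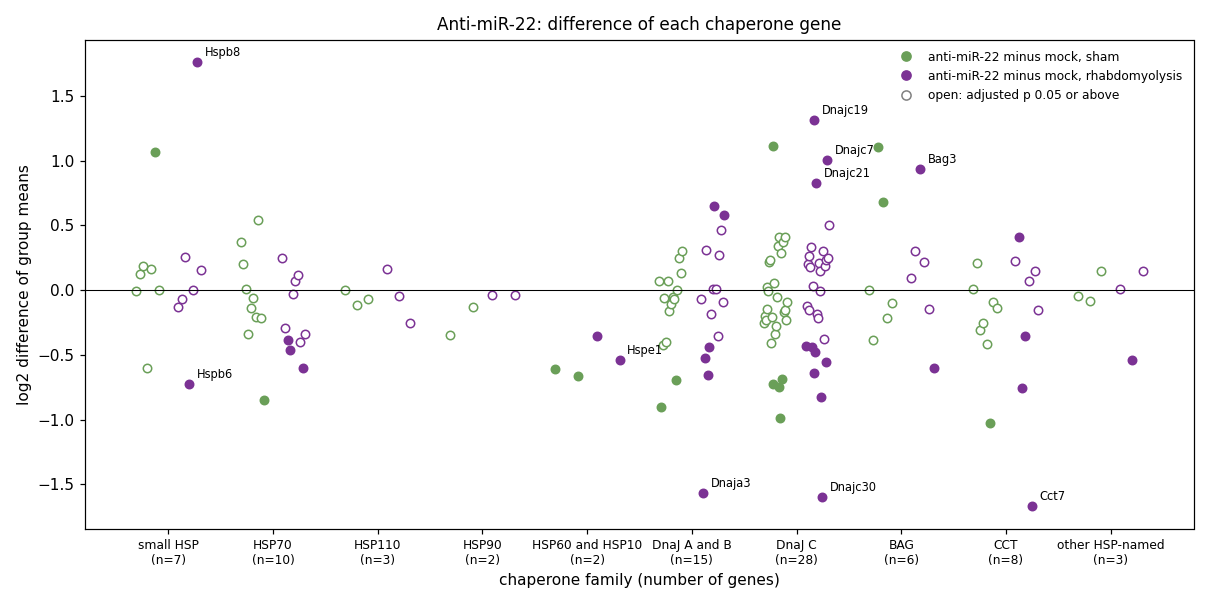
Log2 difference between anti-miR-22 and mock group means for each of the 84 genes (y axis), by chaperone family (x axis); green points are sham and purple points rhabdomyolysis kidneys, filled where limma's adjusted p was below 0.05. Hspb8 and Dnajc19 are the highest called genes in injured kidneys and stand with Bag3 at the top in sham kidneys, and Cct7, Dnajc30 and Dnaja3 are the lowest called genes in both.

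Both genes of the HSPB8 and BAG3 complex were higher with anti-miR-22. Hspb8 read 3.01, 3.89, 3.50, 3.61 and 3.58 in sham mock and 5.19, 3.85, 4.64, 4.37 and 4.87 in sham anti-miR-22, so that the groups overlapped only at their edges; in injured kidneys it ran from 3.80 to 6.37 (median 4.76) with mock and from 6.17 to 7.17 (median 6.81) with anti-miR-22. Of the anti-miR-22 arrays 4 of 5 shams and 6 of 7 injured ones lay above every mock array of their state. The log2 differences were 1.07 ± 0.31 in sham (adjusted p = 0.0286) and 1.76 ± 0.26 in injured kidneys (adjusted p = 6.08e-06). The sham call was lost on leaving out array 1 or 3 of the mock group or array 1, 3 or 5 of the anti-miR-22 group (adjusted p up to 0.0974). Both sham means were dim, so no fold is given.

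Bag3 read 7.99, 7.23, 7.20, 7.39 and 7.44 in sham mock and 8.998, 9.12, 7.75, 8.58 and 8.33 in sham anti-miR-22, with 1 anti-miR-22 array below the highest mock array. In injured kidneys it ran from 8.22 to 9.13 (median 8.72) with mock and from 8.64 to 10.20 (median 9.65) with anti-miR-22, where array 2 of the latter lay among the mock values and the other 6 above them all. Bag3 was 2.15-fold higher in sham (1.11 ± 0.25, adjusted p = 0.00364) and 1.91-fold higher in injured kidneys (0.94 ± 0.21, adjusted p = 0.00122). Cryab, a small heat shock protein gene outside the symbol rule, was 1.89-fold and 2.16-fold higher (0.92 ± 0.23 and 1.11 ± 0.19, adjusted p = 0.00965 and 6.14e-05), and glycerol raised it 2.52-fold with mock. It comes from a list of 13 chaperones of other names. With anti-miR-22 that list gave 1 higher and 1 lower call in sham kidneys, and 2 higher and 4 lower in injured kidneys. The shares of all probes were 3.85% and 3.31% in sham, and 9.48% and 10.2% in injured kidneys.

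Hspb1, Hspa1a, Hspa1b, Dnajb1 and Hsp90aa1, which also rose with glycerol, were not called with anti-miR-22 against mock in either state. Hspb1 had anti-miR-22 differences of -0.01 ± 0.22 in sham and -0.13 ± 0.19 in injured kidneys (adjusted p = 0.994 and 0.713). Those of Hspa1a were -0.13 ± 0.22 and -0.03 ± 0.19, those of Dnajb1 -0.06 ± 0.19 and 0.31 ± 0.16, and those of Hsp90aa1 -0.35 ± 0.17 and -0.03 ± 0.14. Hspb6 was 1.65-fold lower with anti-miR-22 in injured kidneys (-0.72 ± 0.21, adjusted p = 0.0127), where smooth muscle and stroma markers gave 1 of 6 higher and 2 lower. Bag4 was higher in sham kidneys alone (0.68 ± 0.17, adjusted p = 0.0117), and Bag6 lower in injured kidneys alone (-0.61 ± 0.14, adjusted p = 0.00206); the direct test of a difference between states did not call either (adjusted p = 0.405 and 0.331).

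**Figure D5:**
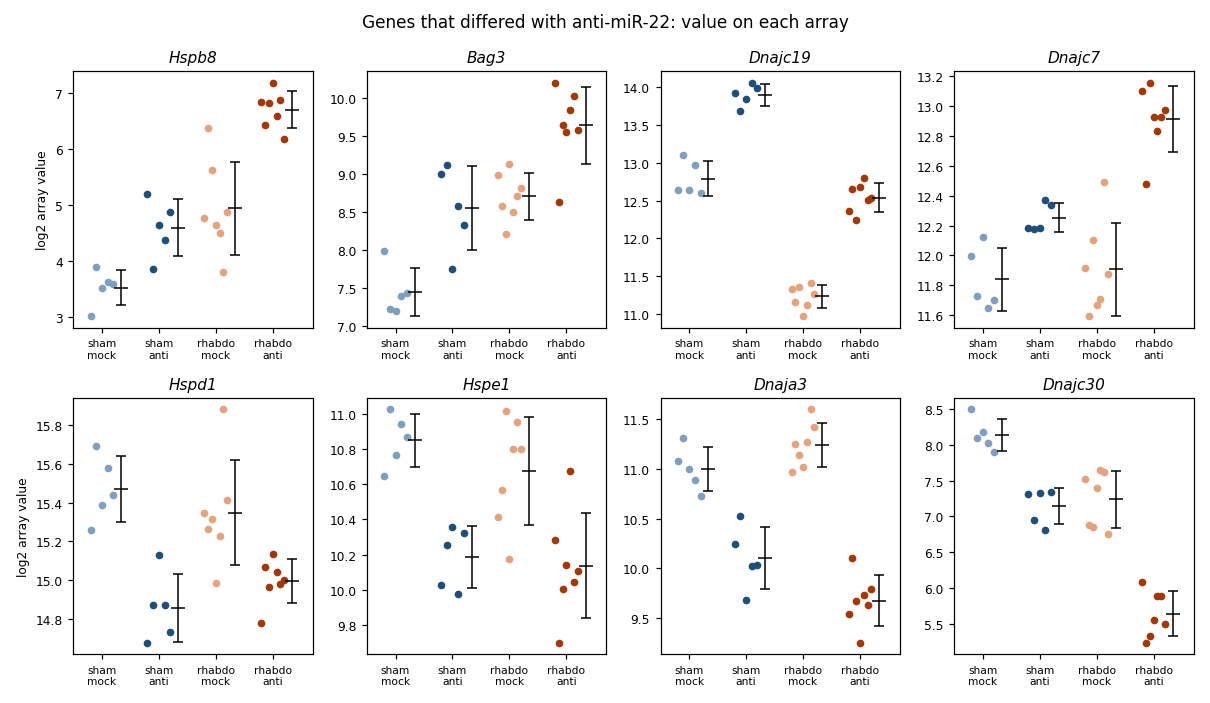
Log2 array values (y axis) of 8 genes on each array by group (x axis; "rhabdo" is rhabdomyolysis and "anti" is anti-miR-22), with points for arrays and black bars for the mean ± SD. The upper row is higher with anti-miR-22 (Dnajc7 in injured kidneys only by the test) and the lower row lower.

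Among J-domain genes Dnajc19 was the clearest. It read 12.64, 13.11, 12.64, 12.97 and 12.60 in sham mock and 13.92, 13.69, 13.85, 14.06 and 13.99 in sham anti-miR-22, and ran from 10.97 to 11.41 (median 11.26) and from 12.25 to 12.80 (median 12.54) in the injured groups. The mock and anti-miR-22 arrays were wholly apart in both states. It was 2.16-fold and 2.48-fold higher (1.11 ± 0.14 and 1.31 ± 0.12, adjusted p = 1.91e-06 and 6.49e-10), whereas glycerol lowered it. Dnajc7, a co-chaperone of HSP70 and HSP90, was 2.01-fold higher in injured kidneys (1.01 ± 0.13, adjusted p = 9.88e-07) and had a difference of 0.41 ± 0.16 in sham kidneys that was not called (adjusted p = 0.125). Dnajc21, needed to mature the large ribosomal subunit, was 1.77-fold higher in injured kidneys (0.83 ± 0.16, adjusted p = 0.000231), and Dnajb2 and Dnajb9 were 1.56-fold and 1.5-fold higher there. Lower in sham kidneys were Dnajb4 (-0.69 ± 0.17, adjusted p = 0.00976) and Dnajc5 (-0.68 ± 0.18, adjusted p = 0.0161, a call lost on leaving out array 4 of the anti-miR-22 group, adjusted p = 0.0654), both raised by glycerol. Dnajc2 was lower in both states (-0.72 ± 0.18 and -0.48 ± 0.15, adjusted p = 0.00886 and 0.0218); 6 of 31 alternatives ended the second call, among them leaving out array 2, 3 or 7 of the injured mock group or array 5 or 6 of the injured anti-miR-22 group (adjusted p up to 0.0635). Dnajc6 was lower in injured kidneys (-0.56 ± 0.20, adjusted p = 0.0433), a call ended by 10 of 31 alternatives, 9 of which each left out 1 injured array (adjusted p up to 0.104).

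Several mitochondrial members were lower with anti-miR-22. Hspd1 read 15.26, 15.69, 15.39, 15.58 and 15.44 in sham mock and 14.68, 14.87, 15.13, 14.87 and 14.73 in sham anti-miR-22, and Hspe1 read 10.64, 11.02, 10.76, 10.94 and 10.87 and 10.03, 10.25, 10.36, 9.97 and 10.32. Neither gene's sham groups overlapped. In sham kidneys Hspd1 was 1.53-fold lower (-0.61 ± 0.14, adjusted p = 0.00507) and Hspe1 1.58-fold lower (-0.66 ± 0.17, adjusted p = 0.0102). In injured kidneys the differences were -0.35 ± 0.12 and -0.54 ± 0.14 (adjusted p = 0.0361 and 0.00548), with overlapping groups. The Hspd1 call there was lost in 9 of 31 alternatives (adjusted p up to 0.1), among them leaving out array 1, 6 or 7 of the mock group or array 1, 3, 6 or 7 of the anti-miR-22 group. Hspa9 was 1.8-fold lower in sham kidneys (-0.85 ± 0.20, adjusted p = 0.00655) and had a difference of -0.34 ± 0.17 in injured kidneys (adjusted p = 0.19).

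Dnaja3, the mitochondrial J-domain partner of mortalin, read 11.08, 11.32, 10.998, 10.89 and 10.73 in sham mock and 10.24, 10.53, 9.68, 10.02 and 10.03 in sham anti-miR-22; it ran from 10.97 to 11.60 (median 11.25) and from 9.25 to 10.11 (median 9.67) in the injured groups. All anti-miR-22 arrays lay below all mock arrays of the same state. It was 1.87-fold and 2.96-fold lower (-0.90 ± 0.17 and -1.57 ± 0.14, adjusted p = 0.000454 and 7.2e-10). Dnajc30 ran from 6.75 to 7.65 (median 7.39) in rhabdomyolysis mock and from 5.24 to 6.08 (median 5.55) in rhabdomyolysis anti-miR-22, again apart. Its log2 differences were -0.99 ± 0.19 in sham and -1.60 ± 0.16 in injured kidneys (adjusted p = 0.000852 and 9.05e-09). Over the 8 mitochondrial members 5 were lower and 1, Dnajc19, higher in sham kidneys, and 4 were lower and 1, again Dnajc19, higher in injured kidneys. Of all probes 3.31% were lower and 3.85% higher in sham, and 10.2% and 9.48% in injured kidneys. The group was made after the values were seen, so nothing is read from these counts.

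Of the 8 genes grouped above under the endoplasmic reticulum, a chosen list that may not hold every such member, 5 were lower and 1 higher with anti-miR-22 in injured kidneys. In sham kidneys 1 was lower and 0 higher. Of all probes 10.2% were lower and 9.48% higher in injured kidneys, and 3.31% and 3.85% in sham kidneys. This group too was made after the values were seen, so nothing is read from its counts. The direct test of a difference between states called 0 of the 8. Hspa5 was 1.52-fold lower with anti-miR-22 than with mock after injury (-0.60 ± 0.14, adjusted p = 0.00157), Dnajb11 1.58-fold lower and Hspa13 1.31-fold lower. Dnajc3, the inhibitor p58IPK of stress kinases, was lower in both states (-0.75 ± 0.16 and -0.83 ± 0.13, adjusted p = 0.00219 and 2.31e-05). Dnajb9 was the gene that was higher. Proximal tubule markers gave 6 of 12 lower and 1 higher in the same injured comparison (summed log2 value 160.09 to 167.76 with anti-miR-22), endothelial markers 4 of 6 lower (2 of 6 in sham kidneys) and neutrophil markers 2 of 7 higher, and their part in these values was not tested.

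The CCT genes gave 1 higher and 3 lower calls with anti-miR-22 after injury, and 1 lower in sham kidneys. Of all probes 9.48% were higher and 10.2% lower after injury, and 3.31% were lower in sham kidneys. Cct4 was 1.69-fold lower (-0.75 ± 0.11, adjusted p = 7.52e-06), with injured values from 13.78 to 14.17 (median 13.93) for mock and from 12.71 to 13.47 (median 13.34) for anti-miR-22, which did not overlap. Cct5 was 1.28-fold lower, whereas Cct3 was 1.33-fold higher (adjusted p = 0.015 and 0.00423), so subunits of 1 ring did not move alike. Cct7 had log2 differences of -1.03 ± 0.16 in sham and -1.67 ± 0.14 in injured kidneys (adjusted p = 7.25e-05 and 1.73e-10); it read 5.01, 4.90, 4.76, 4.85 and 4.89 in sham mock and 3.56, 3.86, 3.76, 4.05 and 4.04 in sham anti-miR-22, low values on these arrays, and ran from 5.63 to 6.25 (median 5.80) and from 3.52 to 4.56 (median 4.26) in the injured groups. The anti-miR-22 arrays lay below the mock arrays in each state.

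The remaining called members had smaller differences. With glycerol and mock, Hspa14, Hspa4l, Hspa12b, Hspbap1, Dnajc1 and Dnajc25 rose by 0.41 to 0.63 and Dnajc15 fell (-0.49). The Hspa14 call was lost in 10 of 31 alternatives, the Hspa4l call in 5 and the Hspa12b call in 1. Hspa14, Hspa12b and Hspbap1 were not called for glycerol with anti-miR-22. With glycerol and anti-miR-22, calls without a counterpart with mock included rises of Hspa9 (0.55, lost on leaving out array 4 or 5 of the sham or array 2 of the injured anti-miR-22 group, adjusted p up to 0.066), Dnajc7 (0.66), Dnajb2 (0.80), Dnajc8 (0.81), Dnajc11 (0.79) and Dnajc21 (1.06), and falls of Dnajb12 (-0.75), Dnajc16 (-0.66) and Dnajc18 (-0.65). In all, 23 of the 84 members were called in none of the 5 comparisons, Hsph1, Hsp90b1 and Dnajb6 among them.

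Partners of these chaperones were read from lists chosen by function. Of 18 measured heat shock factor and HSP70 or HSP90 co-chaperone genes, 7 rose and 1 fell with glycerol and mock, and 9 rose and 1 fell with anti-miR-22; the shares of all probes were 18% and 16.4% with mock and 19.8% and 17.6% with anti-miR-22. With anti-miR-22 against mock, 2 were higher and 2 lower in sham kidneys and 2 higher and 5 lower in injured kidneys. Of all probes 3.85% were higher and 3.31% lower in sham kidneys, and 9.48% and 10.2% in injured kidneys. The rises with mock included Unc45a, a myosin chaperone (0.94 ± 0.16), Cdc37, which brings kinases to HSP90 (0.82 ± 0.18), and Ptges3, or p23 (0.79 ± 0.17), and the fall was that of Hsbp1, which binds heat shock factor 1 (-0.52 ± 0.13). Fkbp5, the HSP90 immunophilin induced by glucocorticoids, rose with glycerol and anti-miR-22 (1.44 ± 0.20, adjusted p = 7.18e-07) and was lower with anti-miR-22 in sham kidneys (-1.13 ± 0.22, adjusted p = 0.000816). Both values use the sham anti-miR-22 arrays, and the direct test of a difference between the glycerol responses called 0 of the 18 genes. In injured kidneys Stip1, or HOP, which links HSP70 to HSP90, was 2.25-fold lower with anti-miR-22 (-1.17 ± 0.17, adjusted p = 6.6e-06), and Tomm34 2.09-fold higher (1.07 ± 0.17, adjusted p = 1.52e-05).

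Prefoldin hands unfolded chains to CCT. Of 12 prefoldin and CCT partner genes, 4 rose and 0 fell with glycerol and mock, and 8 rose and 0 fell with anti-miR-22. The glycerol shares of all probes were 18% higher and 16.4% lower with mock and 19.8% and 17.6% with anti-miR-22. With anti-miR-22 against mock, 1 was higher and 1 lower in sham kidneys and 5 higher and 2 lower in injured kidneys. Of all probes 3.85% were higher and 3.31% lower in sham kidneys, and 9.48% and 10.2% in injured kidneys. Pfdn2 was 1.91-fold higher with anti-miR-22 in sham and 4.04-fold higher in injured kidneys (0.94 ± 0.17 and 2.02 ± 0.14, adjusted p = 0.00037 and 9.72e-12), and its glycerol responses differed by the direct test (1.08 ± 0.22, adjusted p = 0.0248). Pfdn1 was 2.02-fold lower in injured kidneys. Of 13 chaperones of other names, 4 rose and 2 fell with glycerol and mock and 3 rose and 3 fell with anti-miR-22, against the same shares of all probes. Their median log2 differences with glycerol were -0.09 and 0.04. For anti-miR-22 against mock, 1 was higher and 1 lower in sham kidneys, and 2 were higher and 4 lower in injured kidneys. The shares of all probes are those given for the prefoldin genes. With glycerol and mock the collagen chaperone gene Serpinh1 rose 3.41-fold (1.77 ± 0.15, adjusted p = 3.23e-11). The mitochondrial HSP90 gene Trap1 fell 1.63-fold with mock (-0.71 ± 0.15, adjusted p = 0.000239).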

How the data were processed

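Per the labels' protocols, total RNA of halved kidneys was amplified and biotin-labelled DNA was hybridised to Mouse Clariom S arrays. The deposited values are log2 values; the submitters' processing notes name RMA and Partek 6.4 without roles or order, and other settings, batches and a genome build are not given in these sources. RMA corrects background and equalises arrays, which narrows differences among dim probes. The deposited values reached 19.9 and the steps behind them are not given in full, so their exact scaling is not known. All folds are those of the deposited values. Of 22206 probe lines, 1 with missing values was left out. Probe symbols came from GEO's platform annotation. Group means of all 24 arrays were fitted with limma 3.58.1 (R 4.3.3, lmFit and eBayes), two-sided, with Benjamini-Hochberg adjustment over 22205 probes and calls below 0.05; errors are standard errors of the fit (SE) or SD where stated. The fit was tested on simulated data with added log2 shifts. For shifts of 1 it recovered 84 to 95% in the glycerol and anti-miR-22 comparisons, and 51% for the difference between the glycerol responses. For shifts of 0.5 it recovered 17 to 33% and 0%. The direct test of that difference could thus miss shifts of these sizes. The number of arrays limits the precision. Members called with a log2 difference of at least 1 somewhere are described singly, the rest by family. Members, lists and tests were chosen with earlier results of these data known. Alternatives are given in the closing section. Replicate numbers were not treated as pairs. Of 30 same-numbered pairs 29 had residual correlations of 0.1 or less (range -0.108 to 0.102), and in 8 the best match was the same number. These values cannot exclude a weak pairing, and counts with the replicate number as a block are given in the closing section.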

Additional observations from a re-analysis of the deposited data

Results flagged for a closer look

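Among the 61 members called in any comparison, each of the 4 groups was searched for a single array whose gap to its neighbour was wide for the group's range. Of 244 such sets of values 16 held one; chance alone gives about 1 in 20.

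Rhabdomyolysis anti-miR-22 array 5 read 10.33 (the others 8.97 to 9.35) for Hspa1a, 9.82 (the others 8.07 to 8.71) for Hspa1b and 4.01 (the others 4.53 to 4.82) for Hspa12b. It was also the highest of its group for Hspb1 (11.70) and Dnajb1 (10.71). Array 2 of the same group read 9.20 (the others 8.61 to 8.76) for Hspa14, 10.23 (the others 9.58 to 9.82) for Dnajb12 and 8.64 (the others 9.55 to 10.20) for Bag3; without it the Bag3 difference between anti-miR-22 and mock in injured kidneys was 1.10. Array 1 of that group read 16.86 (the others 16.44 to 16.58) for Hsp90aa1 and 9.48 (the others 9.96 to 10.28) for Dnajc21.

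In sham anti-miR-22, array 3 was low for Hspa13 at 9.64 (the others 10.04 to 10.19), Dnajc6 at 10.08 (the others 10.70 to 10.88) and Hspbap1 at 6.23 (the others 6.58 to 6.67). Array 4 of that group was low for Dnajc5 at 7.76 (the others 8.21 to 8.32), array 2 for Cct6b at 5.46 (the others 5.73 to 5.82), and array 1 was high for Dnajc5g at 4.41 (the others 3.23 to 3.52). Sham mock array 2 was high for Bag4 at 6.50 (the others 6.04 to 6.16), and rhabdomyolysis mock array 7 for Cct7 at 6.25 (the others 5.63 to 5.84).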

How the results depend on the processing

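Counts of called members stayed within 1.5 times of those given under trend and robust moderation, a second quantile normalization, median centring, omission of dim probes, fits of 2 groups alone, the replicate block and omission of single arrays. At an adjusted p below 0.01, the genes higher with anti-miR-22 in sham kidneys went from 4 to 2 and those lower in injured kidneys from 22 to 12. Leaving out single arrays gave 40 to 44 called members for glycerol with mock (42 in full), 47 to 53 for glycerol with anti-miR-22 (53), 13 to 15 for anti-miR-22 in sham (14), 26 to 32 in injured kidneys (30) and 0 in each fit for the difference between responses. With the replicate number as a block (replicate block) the counts were 40, 50, 14, 31 and 0. Each member had 1 probe, so averaging probes changed none of its values. Of the calls, 38 of 42, 44 of 53, 12 of 14 and 25 of 30 passed in every alternative that tested them at 0.05, and 0 changed sign. Both scalings moved the median of all probes by at most 0.03 on the log2 scale. Without detection calls, dim genes (Hspb8, Cct7, Cct6b) have only log2 differences. The cause of lost calls was not tested.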
